A study of Homo sapiens with 6 samples.

Results

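Decitabine at 300 nM was compared with its vehicle, DMSO, in 786-0 cells, an established human line of clear cell renal carcinoma. The comparison used 4 of the 6 libraries analysed here: 2 from cells given 300 nM decitabine and 2 from cells given DMSO, chosen by their titles. The other 2, at 100 nM, entered the fits to estimate the spread and are given beside the results. In all 6, controls included, the labels give a knockout of SETD2, a histone methyltransferase of transcribed genes. Per the labels, cells received drug or DMSO daily for 3 days, new medium on day 4, and were collected on day 5. Neither the number of knockout clones nor separate cultures are stated, so the p-values rest on the scatter between libraries that may be technical repeats. The series title concerns a link between SETD2 loss and sensitivity to hypomethylating agents, but no library with intact SETD2 is analysed here. All 58381 genes of the count files were considered, 37599 of them had a read, and 23160 passed the filter on low counts and were tested.

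Decitabine is a deoxycytidine analogue. Once built into DNA it traps DNA methyltransferases, and methylation at CG dinucleotides is lost over later divisions. Promoters that methylation holds silent, such as those of many germline genes on the X chromosome, are known to become active after such loss. A gene's level as counts per 1000000 reads (CPM) also depends on features of its transcript, among them length and base composition, when libraries differ in how such transcripts are recovered. A second fit therefore carried an offset for exon length and GC content in each library, and both fits are given below as log2 fold changes of 300 nM over DMSO.

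The 6 libraries held 89159112 to 96646427 reads assigned to genes. The 10 most abundant genes took 5.20% to 5.62% of the scaled reads in every library. Among markers of clear cell renal carcinoma, PAX8 was at 254 and 254 CPM with DMSO and at 80.4 and 80.2 CPM at 300 nM. VIM was at 1778 to 2369 CPM over the 4 libraries. CA9 had 0 reads in both DMSO libraries and 24 and 27 reads at 300 nM. PTPRC and CD3E, which define leukocytes and T cells, and KDR, which defines endothelium, had at most 10 reads in any of the 4 libraries and were not tested. In bulk RNA, fewer cells of a type and less RNA per cell cannot be told apart, and CPM says nothing of the total RNA per cell.

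SETD2 itself was read in every library, which checks nothing of the genotype because intact cells are not analysed here. The level was 77.9 and 81.2 CPM with DMSO, 39.8 and 49.1 CPM at 100 nM, and 16.4 and 21.7 CPM at 300 nM, and the groups do not overlap. SETD2 (ENSG00000181555.20, GRCh38 chromosome 3, 47016429 to 47163967) has 10.1 kb of merged exons and 42.7% GC. On the log2 scale the change was -2.06 (SE 0.14, edgeR adjusted p = 1.5e-09) without offsets and -1.08 (SE 0.08, adjusted p = 9.5e-08) with them.

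Without offsets, 8060 of 23160 genes (34.8%) rose and 7203 (31.1%) fell (edgeR quasi-likelihood test, Benjamini-Hochberg adjusted p under 0.05). With offsets, 7722 (33.3%) rose and 7440 (32.1%) fell. At a fold of 2 or more, 4970 genes rose and 4639 fell without offsets, against 4515 and 3692 with them. The totals moved little, but the genes behind them did. Of the 7203 genes that fell, 5274 (73.2%) still fell with offsets, 1227 were no longer called and 702 (9.75%) were called higher. Of the 8060 genes that rose, 6088 (75.5%) still rose, 1655 were no longer called and 317 (3.93%) were called lower. A further 1849 genes were called lower and 932 higher with offsets alone.

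Among the 12432 protein-coding genes that averaged 1 CPM or more over the 6 libraries, 38.3% rose and 39.9% fell without offsets, against 39.4% and 38% with them. At a fold of 2 or more, 1993 rose and 2719 fell without offsets, while 1901 rose and 1383 fell with them. The offsets thus lowered the number of large falls more than the number of large rises. At a fold of 8 or more with offsets, 667 rose and 35 fell. A gene near 0 with DMSO reaches this mean only through the treated libraries, and among the 12120 with at least 10 reads in each DMSO library 357 rose and 35 fell by that much. The mean of 1 CPM still favours rises there, because a low gene that falls further misses it. Over all 13487 coding genes with those DMSO reads, at any mean, 379 rose and 104 fell by a fold of 8 or more with offsets. At a fold of 2 or more, 1860 of them rose and 1694 fell. The median log2 fold change of all genes tested was 0.05 without and -0.03 with offsets, a value that the scaling sets near 0. The biological coefficient of variation over the 6 libraries was 11.8% without and 8.25% with offsets.

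Transcripts with a low GC content were lower at 300 nM as a class. Among the 998 of these coding genes at or under 38% GC, 87.7% fell and 4.31% rose, with a median log2 fold change of -1.60. Among the 1899 genes over 60% GC, 10.8% fell and 66.9% rose, with a median of 0.59. Between these ends the median went from -1.09 (38% to 42% GC) through -0.42, 0.05 and 0.36 to 0.54 (55% to 60% GC). With offsets the median was -0.14 in the lowest GC class and 0.03 in the highest.

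Long transcripts were also lower as a class. Genes with at most 2.5 kb of exons had a median log2 fold change of 0.58, and 63.7% of the 1707 rose. Genes with more than 10 kb had a median of -0.79, and 68.4% of the 1489 fell. With offsets these medians were 0.01 and -0.05. In the map of medians over both features, length and GC each carried a trend at a fixed value of the other.

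**Figure D1:**
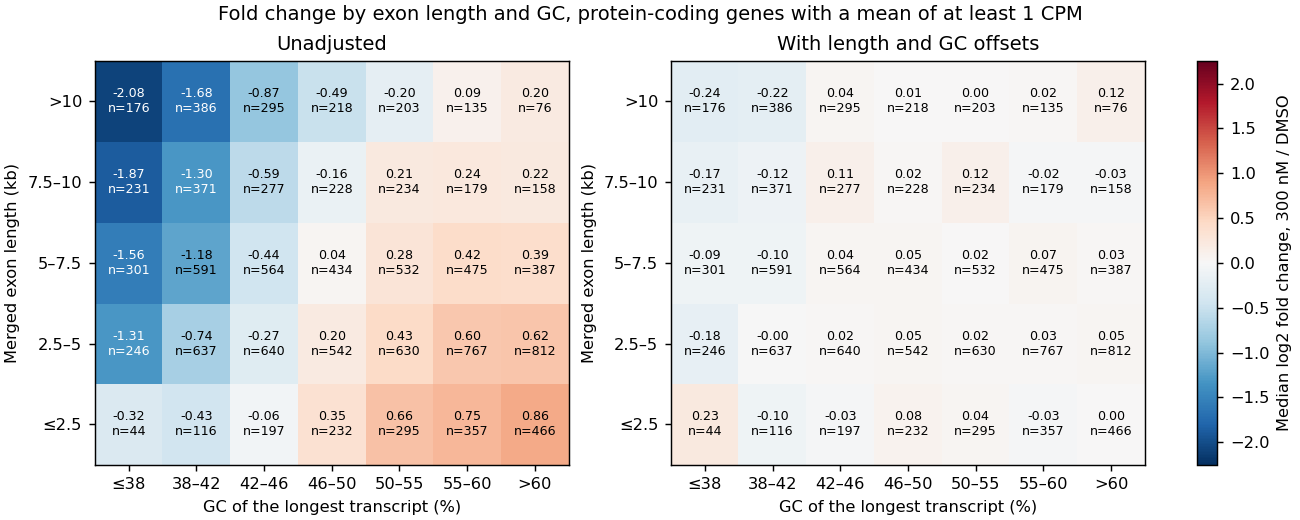
Median log2 fold change of 300 nM over DMSO in 35 classes of GC (horizontal, percent) and merged exon length (vertical, kb), without offsets on the left and with them on the right; each cell gives its median and number of genes. The unadjusted medians run from -2.08 in the long, AT-rich corner to 0.86 in the short, GC-rich corner, and the adjusted ones lie between -0.24 and 0.23.

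Both trends were present in each 300 nM library and smaller in each 100 nM library. In a linear fit on both features, the slope of log2(CPM + 0.5) per doubling of exon length was -0.354 and -0.335 at 300 nM, -0.216 and -0.177 at 100 nM, and within 0.000914 of 0 with DMSO. The slope per 10 points of GC was 0.865 and 0.672 at 300 nM, 0.332 and 0.227 at 100 nM, and within 0.0291 of 0 with DMSO. The DMSO values mirror each other because deviations are taken from the mean of those 2 libraries. The doses did not overlap in either slope. The mean difference between 300 nM and DMSO was -0.344 for length and 0.769 for GC, each with an exact permutation p = 0.333 (two-sided, n = 2 per group), the smallest that 6 splits allow. Length and GC together covered 33.7% of the variance of the difference over the 12432 genes, which are not independent replicates. Whether the trends arise in the cells or in the making of the libraries was not tested.

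**Figure D2:**
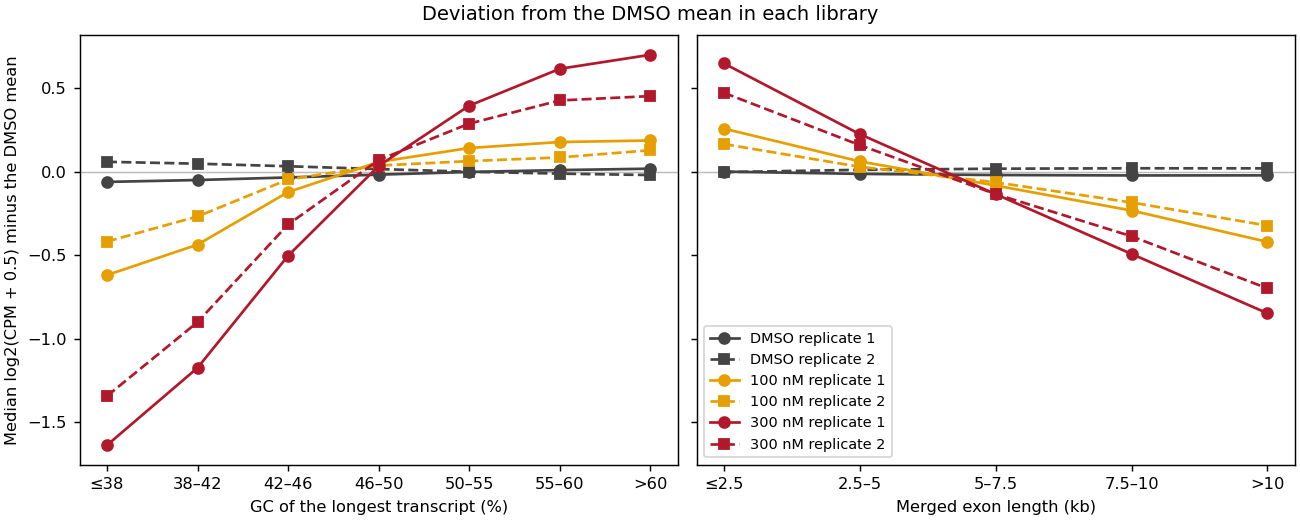
Median deviation of each library from the DMSO mean, on the log2(CPM + 0.5) scale, by GC class (left) and exon length class (right); each line is 1 library, circles are replicate 1 and squares replicate 2. The 300 nM lines are steepest, the 100 nM lines lie between them and DMSO, and replicate 1 is steeper than replicate 2 at both doses.

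The 2 extreme classes show what the offsets do to calls. Of 562 coding genes with exons over 10 kb and GC under 42%, 505 fell and 24 rose without offsets (median -1.82), while 281 fell and 193 rose with them (median -0.22). In that class, 136 genes went from a call of lower to a call of higher. Of 823 genes with exons under 2.5 kb and GC over 55%, 656 rose and 38 fell without offsets (median 0.79), against 335 and 299 with them (median -0.01). There, 145 genes went from higher to lower.

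ACTR3, a subunit of the Arp2/3 complex that nucleates branched actin, is a gene of the first kind, with 12.0 kb of exons at 35.7% GC. Its level was 294 and 319 CPM with DMSO and 192 and 236 CPM at 300 nM, so that both treated libraries were lower. On the log2 scale it changed by -0.52 (SE 0.11, edgeR adjusted p = 5.5e-04) without and 1.42 (SE 0.06, adjusted p = 6.1e-10) with offsets, which compare it with other transcripts of its length and GC. An offset for length alone gave 0.29. RAP1B, a small GTPase, went from -0.52 to 1.23, DR1, a repressor of transcription initiation, from -0.28 to 1.41, and GFPT1, the entry enzyme of hexosamine synthesis, from -0.27 to 1.25. MRPS34, a mitochondrial ribosomal protein with 1.10 kb of exons at 64.5% GC, is a gene of the second kind. It was at 144 and 139 CPM with DMSO and at 208 and 167 CPM at 300 nM, both treated libraries being higher. Its log2 fold change was 0.41 without and -0.66 with offsets. The histone variant gene H2AFX went from 0.32 to -0.53, the TWEAK receptor gene TNFRSF12A from 0.38 to -0.45, and the spliceosomal gene SNRPA from 0.25 to -0.50. Without DMSO replicate 2, the unadjusted calls were lost for DR1 (-0.26), GFPT1 (-0.23), MRPS34 (0.38), H2AFX (0.35), TNFRSF12A (0.33) and SNRPA (0.25). Those of DR1, GFPT1, H2AFX and SNRPA were also lost without DMSO replicate 1 and without 300 nM replicate 1, at -0.30, -0.33, 0.27 and 0.25, and at -0.20, -0.20, 0.17 and 0.17. DR1 and GFPT1 further lost the unadjusted call with DESeq2, with its size factors and with limma on the deposited matrix, each at -0.24. Without a filter on low counts DR1 (-0.27) and SNRPA (0.26) lost it, as did SNRPA (0.24) with only the DMSO and 300 nM libraries. With an offset for length alone, TNFRSF12A (-0.14) and SNRPA (-0.17) were no longer called.

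Some genes moved against the trend of their class in both fits. Among long, AT-rich genes, SCIN (scinderin, an actin-severing protein) had 0 and 2 reads with DMSO and 286 and 374 reads at 300 nM. The ratio of scaled reads was 354, with a 95% interval from counting of 97.5 to 2926 that takes each read as independent. Small counts were mostly even, so that reads may come in pairs from the same fragment, which would widen the interval. GREM1, a secreted antagonist of bone morphogenetic proteins, was at 0.0208 and 0.0638 CPM with DMSO and at 8.82 and 11.9 CPM at 300 nM (log2 fold change 7.90, and 9.40 with offsets, with 8.86 to 10.29 on leaving out each library). WDR66 went from 1.28 and 1.27 CPM to 27.1 and 23.0 CPM, and the collagen gene COL1A2 from 0.583 and 0.489 CPM to 10.3 and 5.38 CPM. All 4 are far higher in both treated libraries, although the COL1A2 libraries differ from each other. With offsets the log2 fold changes were 5.75 for WDR66 and 5.10 for COL1A2, and 4.34 and 3.62 when length and GC were taken from the principal transcript. Without 300 nM replicate 1, the value of COL1A2 with offsets was 4.41. Among short, GC-rich genes, the homeobox gene HOXD9 fell from 21.8 and 23.5 CPM to 6.68 and 7.31 CPM, a log2 fold change of -1.69 without and -2.52 with offsets. SPDYE2 and SPDYE6, members of a family of near-identical copies whose reads may be shared, had log2 fold changes of -2.13 and -2.03 without and -2.82 and -2.76 with offsets.

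The 8 largest rises with offsets were also large without them. They were ranked among coding genes averaging 1 CPM or more with at least 10 reads in each DMSO library. Genes with fewer DMSO reads, such as GREM1 (9.40 with offsets), are outside this ranking. MAGEA4, a germline antigen gene of the X chromosome, was at 0.104 and 0.106 CPM with DMSO, at 28.5 and 22.8 CPM at 100 nM, and at 138 and 119 CPM at 300 nM. On the log2 scale the change was 10.24 (SE 0.22, edgeR adjusted p = 1.9e-15) without and 9.83 (SE 0.17, adjusted p = 2.1e-13) with offsets. The keratin genes KRT17 and KRT7, which build epithelial intermediate filaments, went from 0.166 and 0.138 CPM to 155 and 115 CPM, and from 0.187 and 0.191 CPM to 123 and 99.1 CPM. With offsets their log2 fold changes were 9.04 and 8.65. MYO1G, a myosin of blood cells, SRGN, a proteoglycan core protein of secretory granules, FBXO2, a ubiquitin ligase subunit that binds glycoproteins, IGFBP4, a binding protein of insulin-like growth factors, and the fibrillar collagen gene COL5A1 had log2 fold changes of 8.03 to 8.29 with offsets. SRGN, with 38.1% GC, was the one of the 8 whose rise was larger with offsets (8.06) than without (7.78). IGFBP4 moved most, from 8.82 without to 8.03 with offsets. For all 8, each 300 nM library was far above both DMSO libraries. Exons of MAGEA4, KRT7 and FBXO2 overlap genes on the opposite strand, and counting without strand cannot separate them. The same limit holds for SCIN, GREM1 and SPDYE2 above, for MYH7, TTN, ACTC1 and KLHL14 below, and for further named genes.

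The largest falls included genes of striated muscle. MYH7, a myosin heavy chain of heart and slow muscle, was at 18.3 and 16.0 CPM with DMSO and at 0.0725 and 0.0211 CPM at 300 nM (log2 fold change -8.53, and -8.88 with offsets). TTN, which encodes the giant sarcomere protein titin, went from 58.0 and 55.8 CPM to 1.72 and 1.70 CPM (-5.06, and -4.03 with offsets). The myosin light chain gene MYL2 went from 5.47 and 4.19 CPM to 0 and 0.148 CPM, and the cardiac actin gene ACTC1 from 6.51 and 2.68 CPM to 0.0967 and 0.190 CPM. Both are lower in each treated library, and the DMSO libraries of ACTC1 differ from each other. ACTA1, the skeletal muscle actin gene, differed more between DMSO libraries, at 5.43 and 1.11 CPM, and was at 0.314 and 0.253 CPM at 300 nM. With offsets its log2 fold change was -4.39, and -2.89 without DMSO replicate 1. The values of MYL2 and MYH7 also moved by over 1.5 times when 1 library was left out, between -12.06 and -5.55 for MYL2 and between -9.82 and -8.29 for MYH7. KLHL14, IGIP and VAV3, the last a guanine nucleotide exchange factor, had log2 fold changes of -4.46, -4.38 and -3.86 with offsets. On leaving out each library, IGIP ranged from -6.05 to -3.79 and ACTC1 from -5.34 to -4.02.

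**Figure D3:**
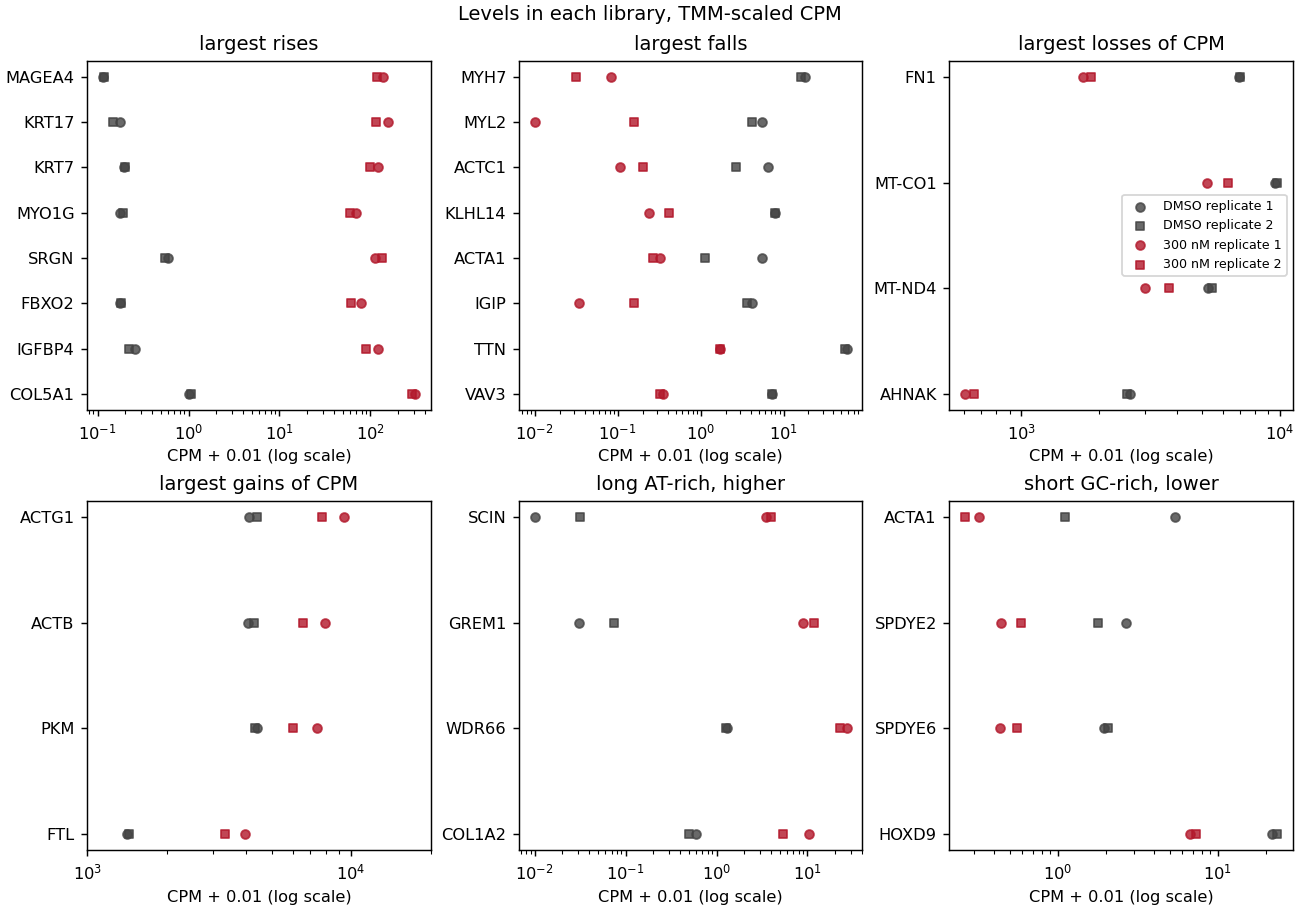
Level of named coding genes in each library as TMM-scaled CPM plus 0.01 on a log axis, in 6 panels by the rule that chose them, with the first 4 genes for gains and losses of CPM; grey is DMSO, red is 300 nM, circles are replicate 1 and squares replicate 2. In every row the 300 nM points lie on one side of the DMSO points, and the DMSO libraries of ACTA1 and ACTC1 stand apart from each other.

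By change in CPM, which is a share of reads and not a level per length, the largest gains were in cytoskeletal and glycolytic genes. ACTG1, a cytoplasmic actin, went from 4115 and 4401 CPM to 9380 and 7722 CPM, and ACTB, the other cytoplasmic actin, from 4069 and 4296 CPM to 7977 and 6580 CPM. Their log2 fold changes were 1.01 and 0.80 without and 0.33 and 0.25 with offsets. PKM (pyruvate kinase), FTL (ferritin light chain) and HLA-B (antigen presentation) were also among them, with log2 fold changes of 0.47, 0.44 and 1.24 with offsets. The largest losses were in FN1, AHNAK, HSP90AA1 and genes of the mitochondrial genome. FN1, which encodes fibronectin, went from 6937 and 7011 CPM to 1726 and 1861 CPM. Its log2 fold change was -1.96 without and -0.71 with offsets, and -1.70 with length and GC of the principal transcript, so that it depends on which transcript is taken as expressed. AHNAK, a giant scaffold protein gene, had -2.04, -1.45 and -2.75 under the same 3 treatments. HSP90AA1, a stress-inducible chaperone gene, fell by 2.20 without and by 1.98 with offsets on the log2 scale.

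Transcripts of the mitochondrial genome took 41063 and 42278 CPM with DMSO and 27912 and 31460 CPM at 300 nM. Of its 13 protein-coding genes, 12 fell and 1 rose in both fits, with medians of -0.71 and -0.80. MT-CO1, a subunit of cytochrome oxidase, went from 9584 and 9766 CPM to 5240 and 6291 CPM. Its log2 fold change was -0.92 with offsets, -1.31 with an offset for length alone and -0.59 with GC alone. The gene that rose was MT-ND3, a subunit of respiratory complex I, named here after its values were seen, at 476 and 471 CPM with DMSO and at 679 and 609 CPM at 300 nM.

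Coding genes were also grouped by their level with DMSO. Of the 486 coding genes at or under 0.01 CPM with DMSO, 483 rose with offsets, but a gene this low passes the filter through the treated libraries, so that it had to rise. Between 0.01 and 0.1 CPM, 75.2% rose and 0.171% fell, and most of these genes too could pass only if they were higher in treated libraries. Between 1 and 10 CPM, 34.0% rose and 35.5% fell with offsets. Between 10 and 100 CPM, 34.7% rose and 42.8% fell, and above 100 CPM 36.3% rose and 43.0% fell. Over the 13487 coding genes with at least 10 reads in each DMSO library, 36.2% rose and 37.5% fell with offsets, against 35.4% and 39.2% without. These genes can pass the filter on their DMSO reads, but the shares pool levels that differ. The gene lists below are set against these pooled shares and were not matched for DMSO level.

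**Figure D4:**
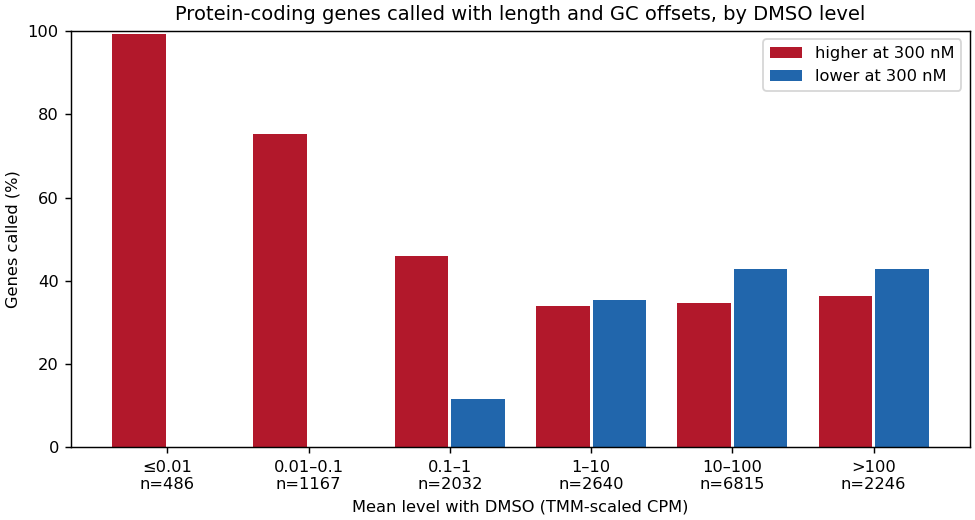
Share of protein-coding genes called higher (red) and lower (blue) with offsets, in percent, by mean DMSO level in TMM-scaled CPM; n gives the genes tested in each class. The share called higher is 99.4% in the lowest class, 34.0% at 1 to 10 CPM and 36.3% in the highest, and in the lowest classes genes pass the filter mainly through treated libraries.

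A set of 197 genes had 3 reads or fewer in the DMSO libraries together and at least 1 CPM in both 300 nM libraries. These values chose the set, so its rise is a description without a test. It held 155 protein-coding genes, 31 long non-coding genes and 9 pseudogenes. The mean level at 300 nM had a median of 2.24 CPM and a maximum of 15.8 CPM. At 100 nM, 62 of the 197 also reached 1 CPM in both libraries. The lowest single 300 nM value inside the set was 1.01 CPM, and the closest gene outside was at 0.972 CPM. Of the 155 coding genes 38 lie on the X chromosome, which holds 579 of the 15386 coding genes tested.

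Promoter windows from RefSeq (GRCh38.p14, 250 bases before to 50 after each gene's start) were available for 111 of these 155 genes. They are relevant because decitabine acts on methylation at CG dinucleotides. The windows held a median of 17 CG, with 13 on the X chromosome and 19 on autosomes. The median was 26 for coding genes that averaged 1 CPM or more and 14 for all 27305 windows. At least 1 CG, which reads the same on both strands, was present in 98.2% of the 111 windows and in 95.8% of all windows. A count of letters is no measure of methylation. The 4 coding genes of the set with the highest level at 300 nM show how far such windows differ, and they are printed 5′ to 3′ on the strand of the gene with each CG in capitals. Their positions are chrX:30243481-30243780 (plus strand) for MAGEB1, chrX:6535069-6535368 (minus strand) for VCX3A, chrX:8171218-8171517 (minus strand) for VCX2 and chr6:22569316-22569615 (plus strand) for HDGFL1.
MAGEB1: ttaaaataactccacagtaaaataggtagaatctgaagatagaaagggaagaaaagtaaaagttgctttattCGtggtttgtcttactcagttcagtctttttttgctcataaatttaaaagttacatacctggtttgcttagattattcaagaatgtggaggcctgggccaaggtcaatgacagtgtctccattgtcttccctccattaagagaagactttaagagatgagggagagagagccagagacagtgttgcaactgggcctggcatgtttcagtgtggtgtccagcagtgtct
VCX3A: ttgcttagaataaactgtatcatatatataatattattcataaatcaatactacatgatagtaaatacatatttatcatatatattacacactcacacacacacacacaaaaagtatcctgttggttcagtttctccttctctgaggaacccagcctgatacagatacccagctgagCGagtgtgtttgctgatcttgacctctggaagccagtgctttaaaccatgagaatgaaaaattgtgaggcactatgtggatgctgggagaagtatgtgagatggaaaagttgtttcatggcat
VCX2: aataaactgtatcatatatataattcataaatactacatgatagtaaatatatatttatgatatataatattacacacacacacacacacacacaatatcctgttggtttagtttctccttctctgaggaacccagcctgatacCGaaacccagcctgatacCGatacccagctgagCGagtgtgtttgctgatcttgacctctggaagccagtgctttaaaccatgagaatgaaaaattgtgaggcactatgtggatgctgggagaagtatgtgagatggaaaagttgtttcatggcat
HDGFL1: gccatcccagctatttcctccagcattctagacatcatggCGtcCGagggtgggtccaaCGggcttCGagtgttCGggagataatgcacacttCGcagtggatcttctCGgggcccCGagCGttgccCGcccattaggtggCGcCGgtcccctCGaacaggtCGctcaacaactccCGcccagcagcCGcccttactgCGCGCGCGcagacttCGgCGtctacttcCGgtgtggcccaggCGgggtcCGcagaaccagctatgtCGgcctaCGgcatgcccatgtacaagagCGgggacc

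The MAGEB1 and VCX3A windows hold 1 CG each, the VCX2 window 3, and the HDGFL1 window 28. MAGEB1, a germline antigen gene, had 0 and 2 reads with DMSO and 1365 and 1425 reads at 300 nM (16.5 and 15.1 CPM). VCX3A and VCX2, which belong to a testis-expressed X-linked family, had 0 reads in both DMSO libraries. VCX3A was at 17.5 and 13.0 CPM at 300 nM and VCX2 at 14.9 and 12.8 CPM. Against 3 reads over the DMSO group they were 956-fold and 872-fold higher, floors that would be lower if reads come in pairs from the same fragment. Copies of this family are near-identical and may share reads. HDGFL1, a relative of the growth factor gene HDGF, had 0 reads with DMSO and 12.1 and 9.69 CPM at 300 nM, 686-fold higher by the same measure.

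Long non-coding genes were called lower more often with offsets than without. Of 4247 tested, 1052 rose and 1085 fell without offsets, against 912 and 1336 with them, and the median went from -0.17 to -0.44. Of 2966 pseudogenes, 663 rose and 633 fell without offsets, against 400 and 789 with them. With offsets 31.5% of the long non-coding genes and 26.6% of the pseudogenes fell, where 32.1% of all genes tested fell. The shares that rose were 21.5% and 13.5%, where 33.3% of all genes tested rose. Both classes are short, with median exon lengths of 1.36 kb and 0.878 kb. The offsets were fitted on coding genes, so that the adjusted values of both classes extend a trend measured elsewhere. Among long non-coding genes with at most 3 DMSO reads, AP000439.3 had the highest level at 300 nM, at 5.93 and 5.76 CPM. Against 3 reads over the DMSO group it was 370-fold higher, a floor that also takes each read as independent. AP005482.1, AC147651.3, LINC00922 and LINC01615 followed, with means of 5.80, 4.13, 3.85 and 3.69 CPM.

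Genes of chromosome structure mostly fell in both fits. Of the 13487 coding genes with at least 10 reads in each DMSO library, 39.2% fell without and 37.5% with offsets, and the lists are set against these shares and the 35.4% and 36.2% that rose. Of 24 tested genes of cohesin, condensin and related complexes, which hold and fold chromosomes, 21 fell and 1 rose without offsets (median -2.62), and 21 fell with them while 3 were not called (median -1.18). The list is AT-rich and long, with medians of 39.8% GC and 7.91 kb, and its median was -1.18 where that of all genes was -0.03. In the class of 7.5 to 10 kb and 38% to 42% GC, 84.6% of coding genes fell without and 45.3% with offsets. SMC2 and SMC4, the ATPases of condensin, went from 185 and 202 CPM to 13.0 and 15.3 CPM, and from 305 and 326 CPM to 23.0 and 30.9 CPM. The treated libraries were far below both controls. Their log2 fold changes were -3.77 and -3.55 without and -2.37 and -1.95 with offsets. NIPBL, the loader of cohesin, had -3.61 and -2.05, and SMC5, of a complex for DNA repair, -3.78 and -2.27.

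Of 41 centrosome and centriole genes, which organise microtubules, 34 fell and 2 rose without offsets (median -1.64), and 31 fell and 1 rose with them (median -1.09). CEP152, a scaffold for centriole duplication, went from 31.8 and 36.1 CPM to 1.15 and 1.83 CPM, with log2 fold changes of -4.50 and -3.36. Both this list and the next stood above the 39.2% and 37.5% of coding genes that fell. CEP350 had -4.20 and -2.86, and PCM1, the core of centriolar satellites, -3.61 and -2.07. Of 20 golgins and related membrane proteins, 15 fell in each fit, and 2 rose without and 3 with offsets. The members with the smallest adjusted p include VPS13A and VPS13C, which transfer lipids between membranes, at -5.17 and -4.54 without and -3.36 and -2.74 with offsets. The golgin genes GCC2 and TRIP11 had -3.57 and -3.83 without and -1.91 and -2.11 with offsets.

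Chromatin genes fell more often than they rose. Among coding genes with at least 10 reads in each DMSO library, 37.5% fell and 36.2% rose with offsets. Of 43 chromatin remodellers, which move or exchange nucleosomes, 30 fell and 6 rose without offsets, against 28 and 7 with them (medians -0.67 and -0.43). BPTF, of the NURF remodeller, went from 96.7 and 99.7 CPM to 11.4 and 16.4 CPM, with log2 fold changes of -2.81 and -1.80. With an offset for length alone, 16 rose and 16 fell. Of 54 enzymes of histone methylation and acetylation, 26 fell and 11 rose with offsets, against 14 and 24 with an offset for length alone. KMT2A, which methylates histone H3 at promoters, had -1.71 without and -0.95 with offsets. HDAC9, a deacetylase, had 0.62 without and 2.10 with offsets, but 0.43 with those of the principal transcript.

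The medians of large ubiquitin ligases and nuclear pore genes came closer to 0 with the offsets. Of 28 large ligases, 23 fell and 3 rose without offsets (median -1.19), and 17 fell and 8 rose with them (median -0.34). BIRC6, which restrains apoptosis, had -2.94 without and -1.80 with offsets. NEDD4L, which targets sodium channels for removal, had 0.76 without, 1.86 with offsets and 0.61 with those of the principal transcript. Of 30 nuclear pore genes, 19 fell and 4 rose without offsets, against 14 and 7 with them. TPR and RANBP2, long genes of the nuclear basket and the cytoplasmic filaments, went from 172 and 173 CPM to 9.89 and 9.43 CPM, and from 143 and 159 CPM to 12.3 and 12.5 CPM. With offsets they were still at -2.68 and -2.01. The share of coding genes that fell was 39.2% without and 37.5% with offsets, with 35.4% and 36.2% rising. Both lists are long, with medians of 12.5 kb and 7.83 kb of exons at 43.4% and 43.5% GC. At 42% to 46% GC, 74.2% of coding genes over 10 kb fell without and 39.0% with offsets. From 7.5 to 10 kb these shares were 61.7% and 37.5%.

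Genes of the actin cytoskeleton mostly rose in both fits. Of 51 myosin and actin regulators, 33 rose and 8 fell without offsets (median 0.70), and 38 rose and 9 fell with them (median 0.51), beside 35.4% and 36.2% of coding genes rising. TPM2, a tropomyosin, went from 1.49 and 1.56 CPM to 108 and 96.4 CPM, with log2 fold changes of 6.06 and 5.47. TAGLN (transgelin), MYL9 (a regulatory myosin light chain) and GSN (gelsolin, which severs actin) had 4.13, 1.92 and 2.61 with offsets, and GSN had 1.87 with those of the principal transcript. Of 37 vesicle coat genes, 19 rose and 12 fell without offsets, against 23 and 7 with them. ARF4, a GTPase of coat assembly, went from 160 and 177 CPM to 327 and 310 CPM.

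Genes of the TNF superfamily, ligands and receptors of immune and death signalling, rose more often than they fell. Of 41 members, 36 were tested, and 27 rose and 5 fell without offsets, against 25 and 8 with them (median 1.24). A gene low with DMSO passes the filter only if it is high with drug, and of the 27 with at least 10 reads in each DMSO library 16 rose and 8 fell, where 36.2% of such coding genes rose and 37.5% fell. TNFRSF9 (4-1BB), a costimulatory receptor, went from 6.05 and 5.50 CPM to 37.5 and 38.7 CPM, with log2 fold changes of 2.72 and 3.22. TNFRSF8 (CD30) and TNFRSF4 (OX40) had 5.34 and 5.69 with offsets. TNFRSF1B, the second TNF receptor, was at 0 and 0.0426 CPM with DMSO and at 25.7 and 21.3 CPM at 300 nM.

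Potassium channel genes also rose more often than they fell, with 26 of 35 tested rising and 3 falling without offsets, and 23 and 2 with them. Of the 17 with at least 10 reads in each DMSO library, 11 rose and 2 fell with offsets, beside 36.2% and 37.5% of such coding genes. KCNN4, a calcium-activated channel, went from 1.28 and 1.40 CPM to 37.3 and 37.0 CPM, with log2 fold changes of 4.79 and 4.15. KCNH2, a channel of cardiac repolarisation, had 3.23 and 2.89. Of 24 tested neuronal cytoskeleton and hormone genes, 18 rose and 2 fell with offsets. The 15 that reached 10 reads in each DMSO library included 9 that rose and 2 that fell. The neurofilament gene NEFH, under that limit, went from 0.0416 and 0.0851 CPM to 12.1 and 11.7 CPM. Synaptic genes split, with 19 of 37 rising and 12 falling with offsets, and with 11 and 12 of the 28 that reached this limit. GRIN2D, a glutamate receptor subunit, went from 0.146 and 0.394 CPM to 27.8 and 24.3 CPM, while the adhesion gene NLGN2 fell from 175 and 169 CPM to 88.8 and 81.6 CPM.

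Genes of retinoid metabolism moved apart. Of 36 tested genes of aldehyde and retinoid metabolism, 20 rose and 9 fell with offsets, and of the 31 with at least 10 reads in each DMSO library 15 and 9, where 36.2% of such coding genes rose and 37.5% fell. ALDH1A1, which makes retinoic acid, fell from 122 and 129 CPM to 11.0 and 11.5 CPM, with log2 fold changes of -3.48 and -3.10. STRA6, the cellular receptor for retinol-binding protein, rose from 1.43 and 1.51 CPM to 33.9 and 30.5 CPM, and CRABP2, a carrier of retinoic acid, from 3.65 and 4.71 CPM to 54.0 and 42.7 CPM. Of 50 antioxidant and NRF2 target genes, 34 rose and 8 fell without offsets, against 30 and 9 with them, or 29 and 9 of the 48 that reached this limit. GPX3, a secreted glutathione peroxidase, and FTH1, the ferritin heavy chain, had 2.70 and 0.84 with offsets.

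Adhesion and signalling lists held members in both directions. Among 25 integrins, 12 rose and 8 fell with offsets, or 10 and 8 of the 23 with at least 10 reads in each DMSO library, near the 36.2% and 37.5% of such coding genes. ITGB4, the partner of laminin in hemidesmosomes, went from 0.645 and 0.574 CPM to 28.1 and 26.4 CPM, while ITGB8, which activates TGF-beta, went from 61.1 and 68.1 CPM to 4.74 and 5.59 CPM. Among 20 laminins and basement membrane genes, 10 rose and 8 fell, or 9 and 8 of the 18 that reached this limit. LAMA3, a laminin chain of epithelial basement membranes, fell from 259 and 249 CPM to 38.7 and 42.1 CPM, and TINAGL1, a secreted matrix protein, rose from 159 and 163 CPM to 807 and 653 CPM. Of 37 Notch pathway genes, 21 rose and 10 fell, or 15 and 10 of 31 at this limit, and LFNG, which glycosylates Notch, had -1.71 with offsets. Of 50 genes of TGF-beta and BMP signalling, 22 rose and 12 fell, or 17 and 12 of 44. Of 46 axon guidance genes, 20 rose and 17 fell, or 15 and 17 of 41, also near the background, with SEMA6A at -3.62 and ROBO4 at 7.42.

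Housekeeping lists, and those of hypoxia-inducible factor targets and kidney tubule genes, held members in both directions. They are to be read against the coding genes with at least 10 reads in each DMSO library, of which 36.2% rose and 37.5% fell. With offsets, 21 of 44 translation factors rose and 13 fell, and 22 of 37 proteasome genes rose and 9 fell. Of 46 spliceosome genes 12 rose and 20 fell, and of 35 chaperones 13 rose and 17 fell. Among 26 glycolysis genes 8 rose and 10 fell, and among 26 genes of the tricarboxylic acid cycle 8 rose and 11 fell. Among 43 lysosomal hydrolases 20 rose and 17 fell, among 17 subunits of the vacuolar ATPase 9 and 4, and among 22 aminoacyl-tRNA synthetases 6 and 10. In cholesterol synthesis 8 of 26 rose and 10 fell, and among targets of hypoxia-inducible factors 18 of 38 rose and 10 fell, or 15 and 10 of the 35 at that limit. Of 28 tested kidney tubule genes 13 rose and 11 fell, but of the 22 at that limit 7 rose and 11 fell. AQP1, the water channel of the proximal tubule, rose from 0.468 and 0.372 CPM to 12.2 and 9.99 CPM.

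Markers of cell types foreign to a carcinoma line were mostly called higher among those tested. Of 20 endothelial and fibroblast markers, 18 were tested, and 17 rose with offsets and 15 without, the rest not being called. Of the 15 with at least 10 reads in each DMSO library, 14 rose with offsets, where 36.2% of such coding genes rose. Their summed level was 30.6 and 31.2 CPM with DMSO and 1358 and 1231 CPM at 300 nM. COL1A1, a fibrillar collagen gene, made up most of it at 300 nM, at 16.3 and 17.7 CPM with DMSO and 1001 and 920 CPM at 300 nM. Of 25 immune cell markers 14 were tested, and 11 rose with offsets while 3 were not called. Only 6 of the 14 had at least 10 reads in each DMSO library, of which 4 rose, and the others passed the filter through treated libraries. Their sum went from 5.19 and 5.60 CPM to 24.2 and 18.1 CPM, with 5 and 7 of the 25 at 0 in the treated libraries. The part of these markers in the other results was not tested.

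**Figure D5:**
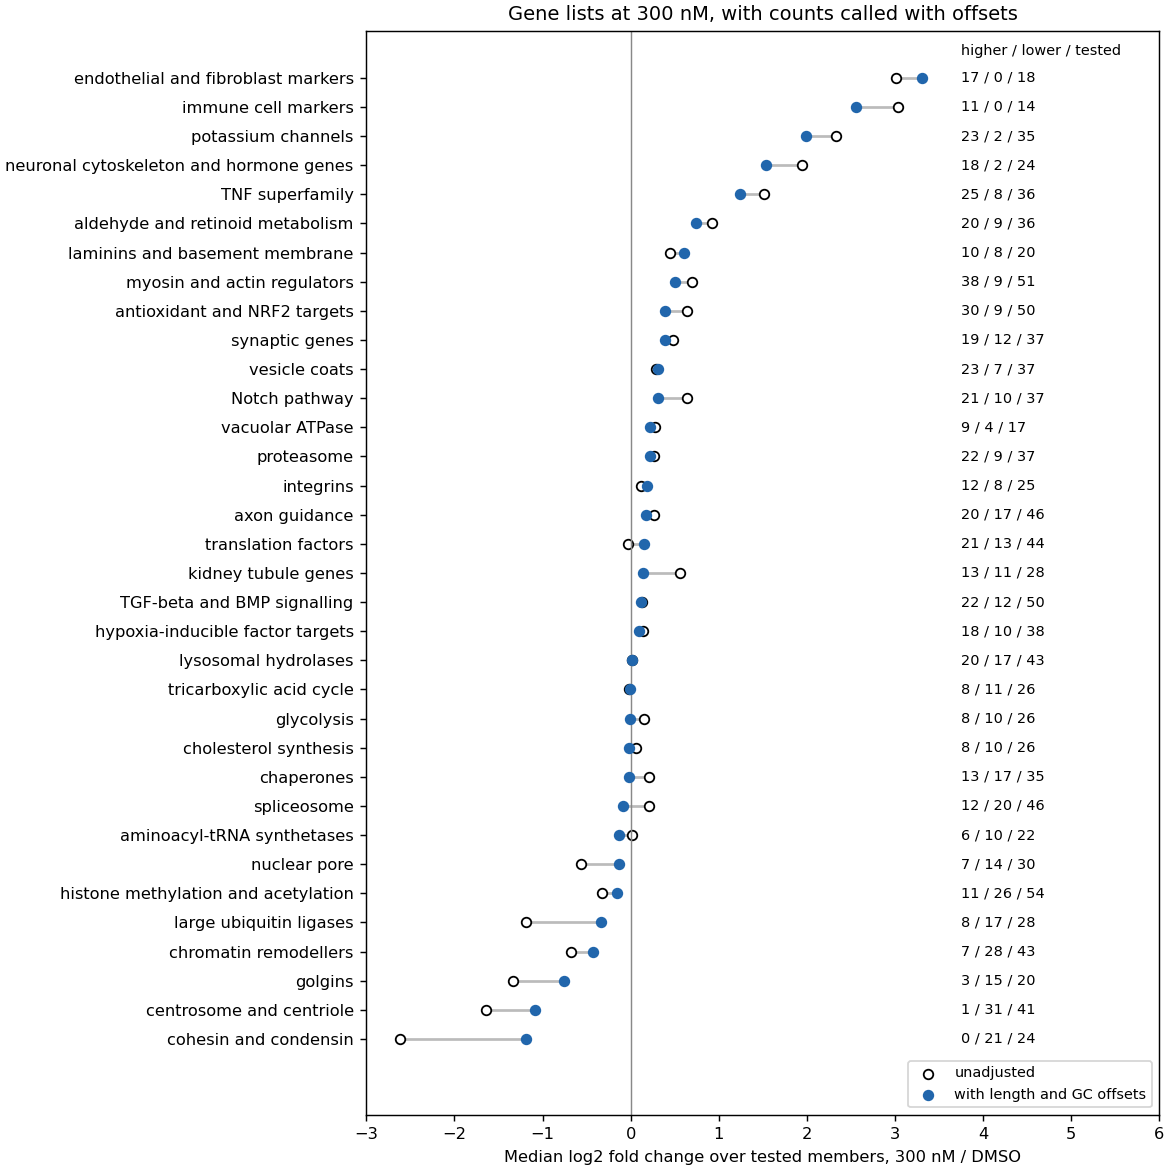
Median log2 fold change of 300 nM over DMSO for the 34 gene lists, without offsets (open circles) and with them (filled circles); the numbers at the right give members called higher, called lower and tested with offsets. Cohesin and condensin, centrosome and golgin genes stay lowest after the offsets, and marker lists of other cell types, potassium channels, neuronal cytoskeleton and hormone genes and the TNF superfamily stay highest, each with members that pass the filter only through treated libraries.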

How the data were processed

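Polyadenylated RNA was sequenced from 6 libraries, 2 per group. The authors deposited whole counts of reads per gene, made with featureCounts 1.5.0-p3 on GENCODE 28 gene models, per the file headers, after STAR and SAMtools, per the submitters' processing notes. The recorded command has no paired-end or strand option, and 70.0% to 74.4% of counts from 1 to 10 were even. The notes name hg19 and GRCh37, but all 56933 genes with the same versioned ID in GENCODE v29 had the same GRCh38 coordinates, which are used here. The authors also deposited a matrix of variance-stabilised log2 values with unstated settings, used as an alternative.

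Counts were filtered with filterByExpr, scaled by TMM and tested in edgeR 4.0.16 (R 4.3.3) with the quasi-likelihood test in 1 fit of 6 libraries by group, leaving 3 residual degrees of freedom. P-values were Benjamini-Hochberg adjusted over all 23160 genes, two-sided. The second fit added offsets, from a robust loess per library (degree 2, span 0.3) of log2(CPM + 0.5) minus the 6-library mean on log10 merged exon length and GC. The loess was fitted over protein-coding genes averaging 1 CPM or more and held within the 1 to 99 percentiles. GC is that of the longest GENCODE v29 transcript, no genome sequence being used here, and 36 tested genes without GC took the median. Names came from GENCODE v29 for 58261 genes.

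Named genes were SETD2 and, among the same coding genes: the 8 largest rises (with 10 or more reads in each DMSO library) and 8 largest falls with offsets called alike in both fits; the 6 largest gains and losses of CPM; 4 genes per direction whose call reversed; 4 per extreme class that went against it; and up to 4 per list. To these came 5 long non-coding genes and 4 promoters of genes with at most 3 DMSO reads, the latter among genes with a window and off chromosome 8. Some named genes are not reported here. The comparison, the 34 lists and the tests were chosen with earlier results of these data known. A count of 0 allows up to 3 reads per library, 0.031 to 0.0336 CPM. Floors and 95% intervals (exact binomial) cover counting error only, since reads carry no molecular identifiers, and they take each read as independent. Where both reads of a fragment were counted, as the excess of even counts would allow, floors are too high and intervals too narrow. Whether they were was not tested. Alternatives covered scaling, filter, replicate block, libraries, DESeq2, limma on the log2 matrix and the form of the offsets.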

Additional observations from a re-analysis of the deposited data

How the results depend on the processing

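The counts of genes higher and lower stayed within 1.5 times of their values in both fits under every alternative run. On leaving out each library in turn, the genes higher numbered 6886 to 8004 and those lower 6179 to 7217 without offsets, and 6592 to 7439 and 6225 to 7128 with them. DESeq2 called 8035 higher and 6506 lower, and limma on the deposited log2 matrix 8377 and 7228. With replicate number as a block the counts were 8344 and 7521 without and 7690 and 7380 with offsets, and no named gene lost its call with it. The labels do not say that the numbers pair libraries. The differences of replicate 1 minus 2 correlated across genes at 0.302 between DMSO and 300 nM, 0.187 between DMSO and 100 nM and 0.486 between the doses. The length slope was -0.2436 with a pseudocount of 5, -0.3624 over genes of at least 10 CPM and -0.3199 with genomic span as a further term (chosen after seeing the data), and -0.3538 to -0.3349 without each library. The GC slope was 0.5275 with a pseudocount of 5, and 0.6723 to 0.8654 without each library. Of 184 named genes, 63 moved by over 1.5 times with an offset for length alone, 10 with GC alone and 13 with the principal transcript (chosen after seeing the data). The proteasome gene PSMB1, at 0.72 with offsets, reversed to -0.09134 with length alone. Which transcript is expressed was not measured, and the offsets depend on it. Counts of members called in lists moved by over 1.5 times in 51 cases and stayed within that in 1581. The cause was not tested in any of these.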

Other observations

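The chromosomes differed in the direction of their genes without offsets, among protein-coding genes averaging 1 CPM or more. On chromosome 13, 17.1% of 211 genes rose and 64.0% fell, and on chromosome 4, 20.9% of 440 rose and 60.9% fell. On chromosome 19, 55.8% of 927 genes rose and 21.5% fell, and on chromosome 22, 59.7% of 305 rose and 18.4% fell. The median GC of these genes was 42%, 42.1%, 58.8% and 56.7%. With offsets the shares that rose were 33.2%, 34.5%, 38.3% and 45.9%, and those that fell 46.4%, 43.2%, 36.1% and 32.5%. These 4 chromosomes were picked after their values were seen.

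Among the markers of renal carcinoma, NNMT, which methylates nicotinamide, was at 79.0 and 84.4 CPM with DMSO and at 124 and 101 CPM at 300 nM. Its log2 fold change was 0.46 (adjusted p = 0.0019, edgeR) without and 0.02 (adjusted p = 0.86) with offsets. PAX8, a transcription factor of the kidney, had -1.66 without and -1.96 with offsets. HBB, which encodes beta globin, had 4 and 12 reads with DMSO and 120 and 14 reads at 300 nM, so that its higher mean rests on 1 library.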
